A study of Mus musculus with 2 samples.

Results

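Macrophages of the gut wall are phagocytes that clear dying cells, sample antigens and release signals for muscle, nerve and vessel cells. Their growth and survival depend on the cytokine CSF1 or its partner ligand IL-34, which act through the receptor CSF1R. They carry the leukocyte phosphatase CD45, scavenger and lectin receptors on their surface and lysosomal glycoproteins inside, and they are a main source of C1q, the recognition molecule of the classical complement pathway. In the mouse, macrophages seed the gut before birth.

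The 10 macrophage genes described here are known markers and the ligand gene Csf1. They were chosen by symbol out of 43346 genes with an Ensembl ID, and not by a threshold on a measured value. They were Ptprc, Cd68, Adgre1, Csf1r, Csf1, C1qa, C1qb, C1qc, Mrc1 and Cd163, and all 10 were found. Total RNA came from the stomachs of 2 pups of strain B6NCrl, sampled at postnatal day 0, 1 library per pup. Both pups had the same dam, their sex was not collected, and neither a treatment nor a genotype other than the strain is named, so the libraries form 1 group with n = 2. The library of pup 1 totalled 51524479 expected counts and that of pup 2 totalled 49983574. Levels are in TPM, which divides reads by transcript length, scales each library to the same total and allows levels of different genes to be set side by side. A gene was called detected where each pup reached 1 TPM. In whole tissue, fewer macrophages and less of an RNA per macrophage cannot be told apart.

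Sequences that separate annotated transcripts of several members are given first. The reads of these genes were divided among transcripts that differ at few places. Each stretch is read 5′ to 3′ on the strand of the gene, from the GENCODE M21 transcripts on mm10. Lower case marks bases that both transcripts of a pair share. Capitals mark where they part. Bases in capitals can still occur further along in the other transcript of the pair, so it is the junction that differs. In Ptprc (chromosome 1), the pair shows the third exon joined either to an exon beyond the variable segment or to the first variable exon. Ptprc-207 of this pair was assigned 0 counts in both pups.
Ptprc-203: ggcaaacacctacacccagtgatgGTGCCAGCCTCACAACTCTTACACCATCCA
Ptprc-207: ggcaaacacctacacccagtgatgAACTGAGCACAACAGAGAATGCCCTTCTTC
In Csf1 (chromosome 3), the fifth exon is followed by a short or a long sixth exon.
Csf1-202: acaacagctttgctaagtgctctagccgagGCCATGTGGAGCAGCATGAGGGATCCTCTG
Csf1-201: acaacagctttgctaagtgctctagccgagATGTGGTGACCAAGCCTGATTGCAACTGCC
In Cd68 (chromosome 11), the first exon is followed by the second or directly by the third.
Cd68-201: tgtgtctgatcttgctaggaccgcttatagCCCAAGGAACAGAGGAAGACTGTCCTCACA
Cd68-203: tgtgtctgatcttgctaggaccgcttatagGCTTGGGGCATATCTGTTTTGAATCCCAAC
In Mrc1 (chromosome 2), the penultimate exon is followed by the last exon or runs on into the last intron.
Mrc1-201: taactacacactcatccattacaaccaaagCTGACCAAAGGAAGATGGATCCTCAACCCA
Mrc1-202: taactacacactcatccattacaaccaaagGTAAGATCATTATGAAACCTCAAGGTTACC
In Cd163 (chromosome 6), 1 form carries 83 extra bases near the end of the coding sequence, which the other lacks.
Cd163-202: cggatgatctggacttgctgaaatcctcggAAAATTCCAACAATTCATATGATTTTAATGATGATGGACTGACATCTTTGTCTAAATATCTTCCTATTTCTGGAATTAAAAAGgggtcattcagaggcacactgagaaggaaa
Cd163-201: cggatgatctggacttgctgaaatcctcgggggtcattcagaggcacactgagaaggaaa

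The 3 chains of C1q were the highest of the 10 genes. C1qb (ENSMUSG00000036905.8, chromosome 4, 136880129 to 136886187) reached 69.22 TPM in pup 1 and 68.32 TPM in pup 2, or 68.8 ± 0.636 on average (SD, n = 2), with 2831 and 2685 expected counts behind these levels. C1qa (ENSMUSG00000036887.5, chromosome 4, 136895917 to 136898803) stood at 42.68 and 45.52 in pups 1 and 2, with a mean of 44.1 ± 2.01 TPM. C1qc (ENSMUSG00000036896.5, chromosome 4, 136889804 to 136893065) stood at 41.73 and 42.44, with a mean of 42.1 ± 0.502 TPM. Both pups thus had the same order of chains. The genes lie side by side on the minus strand, C1qb then C1qc then C1qa by coordinate, with gaps of 3616 and 2851 bases, inside 18675 bases.

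The protein C1q holds equal numbers of its A, B and C chains, but the levels in TPM were not equal. The C1qb level was 1.62 times that of C1qa in pup 1 and 1.501 times in pup 2, and 1.66 and 1.61 times that of C1qc. C1qa and C1qc differed less, by ratios of 1.02 and 1.07. Their ranges over pups did not overlap, but their deposited 95% intervals did. The C1qa interval was 40.1 to 44.1 TPM in pup 1 and the C1qc interval was 39.96 to 43.8 TPM in pup 2. C1qb alone thus stood apart from the other chains beyond both the spread of the pups and the deposited intervals. Whether reads per length can be compared without bias between these genes was not tested. Summed over the 3 chains, the level was 153.63 TPM in pup 1 and 156.28 TPM in pup 2, out of 209.03 and 209.29 TPM for all 10 genes.

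The lysosomal glycoprotein gene Cd68 (ENSMUSG00000018774.9, chromosome 11, 69664213 to 69666153) came next, at 15.64 TPM in pup 1 and 14.70 TPM in pup 2. Its mean was 15.2 ± 0.665 TPM. Adgre1 (ENSMUSG00000004730.10, chromosome 17, 57358691 to 57483527), which encodes the F4/80 antigen of mouse macrophages, had 3.98 and 4.15 TPM in pups 1 and 2, with a mean of 4.07 ± 0.120. Cd68 stood 3.93 times above Adgre1 in pup 1 and 3.54 times in pup 2. Other cells rich in lysosomes also make Cd68.

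The receptor gene Csf1r and its ligand gene Csf1 stood at the same level. Csf1r (ENSMUSG00000024621.11, chromosome 18, 61100598 to 61132149) had 11.60 TPM in pup 1 and 12 TPM in pup 2, a mean of 11.8 ± 0.283. Csf1 (ENSMUSG00000014599.6, chromosome 3, 107741048 to 107760469) had 12.54 and 11.23 TPM, a mean of 11.9 ± 0.926. The ranges overlapped, and the ratio of Csf1 to Csf1r was 1.08 in pup 1 and 0.936 in pup 2. CSF1 is made largely by stromal, muscle and endothelial cells and not mainly by macrophages, so Csf1 marks the supply of the signal and not the cells that receive it. Il34, the gene of the second CSF1R ligand, had 5.50 and 4.30 TPM in pups 1 and 2, which put Csf1 2.28 and 2.61 times above it. Csf1r overlaps Hmgxb3 on the opposite strand over 873 bases at its 3′ end. The expected counts of Csf1r were 2077.26 and 2104.55 and those of Hmgxb3 780.74 and 827.45. Only their sums, 2858 and 2932, were whole numbers, as for reads divided between the pair.

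Among the scavenger and lectin receptors, Mrc1 was well above Cd163. Mrc1 (ENSMUSG00000026712.3, chromosome 2, 14229392 to 14332057) encodes the mannose receptor CD206, which lymphatic and sinusoidal endothelium also carry, and stood at 8.47 TPM in pup 1 and 8.49 TPM in pup 2. Cd163 (ENSMUSG00000008845.5, chromosome 6, 124304656 to 124330527), the receptor for haemoglobin bound to haptoglobin, had 1.06 and 0.91 TPM, from 191 and 158 expected counts. At the gene level Mrc1 was 7.99 times Cd163 in pup 1 and 9.33 times in pup 2. The Mrc1 level includes a noncoding transcript with a retained intron. The full-length Mrc1-201 alone had 6.08 TPM in pup 1 and 4.74 TPM in pup 2, also above Cd163 but by less.

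Ptprc (ENSMUSG00000026395.12, chromosome 1, 138062861 to 138175708), which encodes CD45 of leukocytes, was the second lowest of the members. It had 2.11 TPM in pup 1 and 1.53 TPM in pup 2, from 336 and 258 expected counts, a mean of 1.82 ± 0.410. Csf1r thus stood 5.498 times above the pan-leukocyte gene in pup 1 and 7.84 times in pup 2. The deposited interval for Ptprc was 1.99 to 2.97 TPM in pup 1 and 1.54 to 2.40 TPM in pup 2. In pup 2 the TPM lay just below its own interval, and the posterior mean estimates, 2.46 and 1.94 TPM, were higher than the TPM in both pups.

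**Figure D1:**
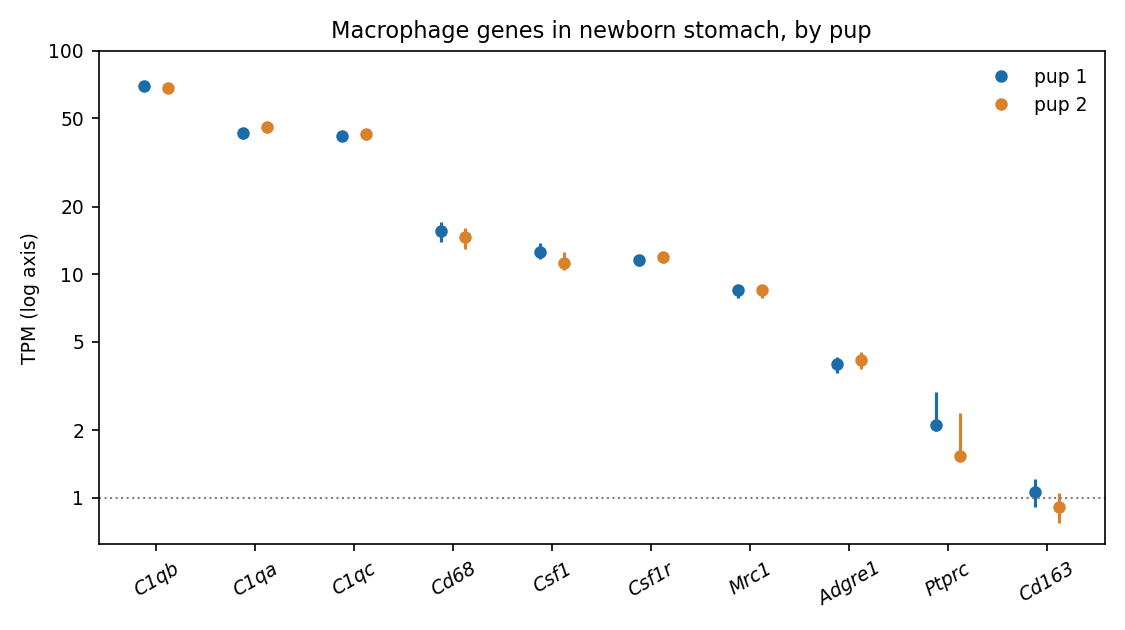
TPM (log axis) of the 10 macrophage genes in pup 1 and pup 2, in order of mean level, with the deposited 95% intervals as bars and a dotted line at a TPM of 1. The 3 C1q genes sit between 41.73 and 69.22, and Cd163 lies on the dotted line at 1.06 and 0.91.

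Of the 10 genes, 9 were detected in both pups, while 61.2% of all 21474 protein-coding genes were. Cd163 missed the limit in pup 2. Without the ligand gene Csf1, 8 of 9 members were detected. The genes spanned a wide part of the range of the tissue. C1qb stood above 91.2% of all protein-coding genes, Csf1r above 67.7%, Adgre1 above 51.6%, Ptprc above 42.8% and Cd163 above 37.8%. The members had a median of 11.8 ± 0.322 TPM, against one of 3.57 ± 0.106 TPM for all protein-coding genes and one of 13.04 ± 0.251 TPM for the detected ones. In the order C1qb, C1qa, C1qc, Cd68, Csf1, Csf1r, Mrc1, Adgre1, Ptprc, Cd163, the ranges of neighbours did not overlap for 8 of 9 pairs, the exception being Csf1 and Csf1r. By the deposited intervals 6 of 9 pairs stood apart, since C1qa and C1qc, and Cd68 and Csf1, also overlapped.

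At the level of whole genes, the 2 pups had close TPM values for most of the 10 members. None of the 10 genes was called different between pups, by intervals that did not overlap, at least a 2-fold difference and a mean expected count of at least 100. Of all 13951 genes with that count, 0.423% were called. With the intervals alone the members still had 0 calls, against 21.2% of all genes. A 1.5-fold difference of TPM without regard to intervals also called 0 members, against 2.35% of all genes. The members had a median log2((TPM of pup 1 + 1)/(TPM of pup 2 + 1)) of 0.00 over the 9 with a mean TPM of at least 1, and all detected protein-coding genes had one of -0.03. The largest ratio was that of Ptprc, whose TPM was 1.38 times higher in pup 1 and whose intervals overlapped. With 1 library per pup, these ratios have no replicate check and no p was computed.

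Reads gave a different picture from TPM for Mrc1. Its share of the library's counts was 1.15 times higher in pup 1 than in pup 2 (95% exact binomial interval 1.06 to 1.24), from 1521 and 1287 expected counts, although the ratio of TPM was 0.998. The effective length used to scale the gene was 4344 bases in pup 1 and 3814 bases in pup 2, because it follows the mix of transcripts. The share of counts was also higher in pup 1 for Csf1, 1.17 times (1.09 to 1.26), and for Ptprc, 1.26 times (1.07 to 1.49). For the other 7 members the interval held 1. Intervals that left out 1 were found for 41.3% of all 13951 genes, so 3 of 10 members is no larger share. The interval lay above 1, higher in pup 1, for these 3 of 10 members and for 17.2% of all 13951 genes. These intervals cover counting error alone and treat reads as independent. PCR copies of a molecule are not independent, so the intervals can be too narrow. Of 6 markers of lymphatic endothelium, which also carries the mannose receptor, 4 were higher in pup 1 and 2 in pup 2, with a median log2 ratio of TPM of 0.03 over the 5 with a mean TPM of at least 1. Lyve1 had 10.57 TPM in pup 1 and 7.99 TPM in pup 2, and Pdpn 30.94 and 23.64. Ccl21a, at 27.1 and 26.72, and Flt4, at 1.25 and 1.20, were nearly level, while Reln had 1.17 and 1.46 TPM and Prox1 0.34 and 0.46. The part of these cells in the count ratio of Mrc1 was not tested.

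**Figure D2:**
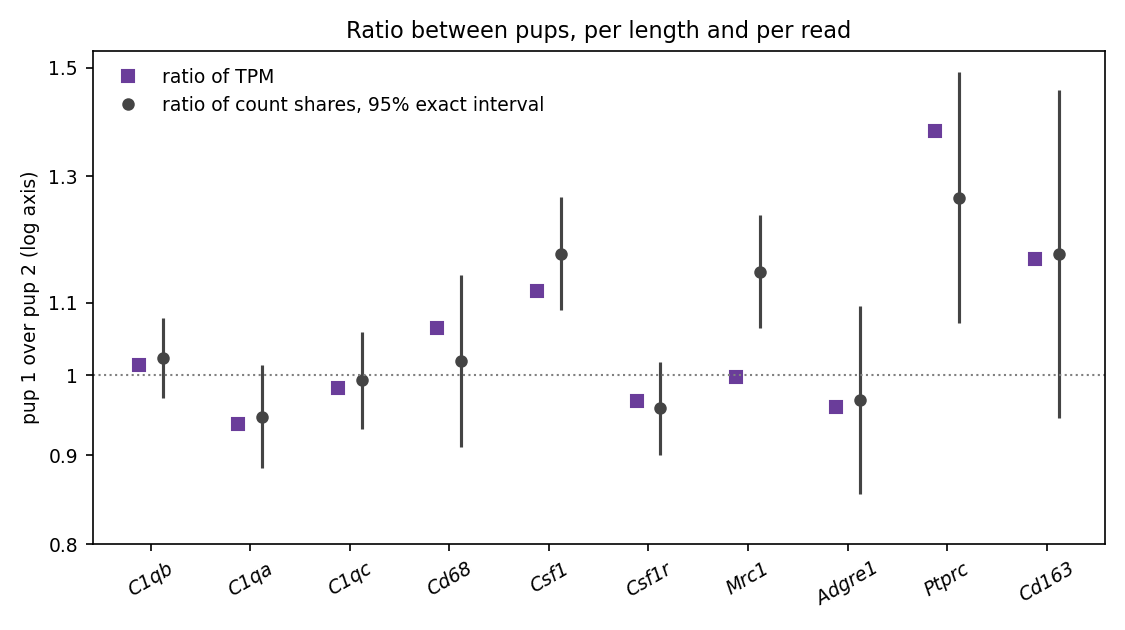
Ratio of pup 1 over pup 2 (log axis) for the 10 genes, as the ratio of TPM (squares) and as the ratio of shares of the library's expected counts (circles, with 95% exact binomial intervals). The markers lie close together for most genes, while for Mrc1 the TPM ratio is 0.998 and the count ratio 1.15.

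Transcripts of the members were compared next. C1qa and C1qb have 1 annotated transcript, and of the 8 members with more, all 8 were led by the same transcript in each pup, as were 91.7% of the 9477 detected protein-coding genes with more than 1 transcript. For C1qc and Adgre1 the main transcript held nearly all of the level. C1qc-201 took 99.76% of the gene's TPM in pup 1 and 99.60% in pup 2, and Adgre1-202 took 95.38% and 96.67%.

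Most coding RNA of CD45 was assigned to a form without the variable exons. Ptprc can include 3 consecutive exons of 129, 147 and 141 bases that encode the A, B and C segments of the extracellular part, and skipping all of them gives CD45RO. Ptprc-203, which joins the third exon directly to the 72-base exon beyond them, as in its printed stretch, held 51.91% of the TPM in pup 1 and 61.95% in pup 2, with 208.71 and 173.21 counts. Ptprc-207, which has all 3 variable exons, and Ptprc-204, which lacks them and the 72-base exon, were assigned 0 counts in both pups. The division of shared reads left room for more: the deposited intervals reached 0.578 TPM in pup 1 and 0.421 TPM in pup 2 for Ptprc-204, and 0.128 and 0.117 TPM for Ptprc-207. Ptprc-213, a fragment with the 147-base exon alone, had 6.43 and 2.15 counts, or 12.21% and 5.88% of the TPM. Transcripts typed as retained introns made up 35.87% of the gene's TPM in pup 1 and 32.17% in pup 2, the largest being Ptprc-201 with 16.47% and 13.77%. No complete transcript with the 147-base exon alone is among the 13 measured, so such a form has no complete entry of its own here. With posterior estimates, Ptprc-203 held 33.14% and 33.65% and Ptprc-204 took 9.40% in each pup. The gene A130071D04Rik, which lies within Ptprc on the same strand, had 8 and 13 counts.

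Csf1 RNA was divided between a long and a short coding form. The long sixth exon encodes the stretch at which CSF1 is cut and released, and the short form stays at the cell surface. Csf1-202, with a sixth exon of 131 bases and a coding sequence of 771 bases, held 39.97% of the TPM in pup 1 and 46.16% in pup 2. Csf1-201 and Csf1-203, with a sixth exon of 1016 bases and a coding sequence of 1656 bases, differ from each other in the last exon. Csf1-201 held 32.61% and 23.98%, and Csf1-203 held 23.56% and 26.00%. The long form thus made up 56.17% of the TPM in pup 1 and 49.98% in pup 2, a mean of 53.1 ± 4.38%. The level of Csf1-201 was 4.09 TPM in pup 1 (interval 2.997 to 4.97) and 2.69 TPM in pup 2 (1.66 to 3.46), so the intervals overlapped.

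The receptor Csf1r had 2 measured transcripts with the same coding sequence of 2931 bases. Csf1r-202, whose last exon runs into Hmgxb3 on the other strand, held 67.20% of the TPM in pup 1 and 77.34% in pup 2, and Csf1r-201 held 32.80% and 22.66%. The level of Csf1r-201 had intervals of 2.38 to 5.33 TPM and 1.12 to 4.24 TPM, which overlapped. Cd163-201 held 54.78% and 56.20% of the TPM of its gene, and Cd163-202, with the 83 extra bases, held 45.22% and 43.80%. These rest on 103.73 and 88.05 counts for Cd163-201 and on 87.27 and 69.95 for Cd163-202.

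In Cd68, the full-length Cd68-201 held 73.58% of the TPM in pup 1 and 82.05% in pup 2. Cd68-203, a transcript typed as noncoding that skips the 434 bases of the second exon, held 26.42% and 17.95%. From 87.67 and 53.81 counts, its level was 4.13 TPM with an interval of 2.21 to 5.91 in pup 1 and 2.64 TPM with an interval of 0.483 to 4.497 in pup 2. These intervals overlapped.

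Mrc1 was the member whose transcripts differed most between pups. The full-length Mrc1-201 had 6.08 TPM in pup 1 (interval 5.63 to 6.37) and 4.74 TPM in pup 2 (4.33 to 5.01). Mrc1-202, which keeps the last intron of 997 bases and holds only the 3′ end of the gene, had 2.39 TPM in pup 1 (1.79 to 2.97) and 3.75 TPM in pup 2 (3.07 to 4.34). Its share of the TPM was 28.18% in pup 1 and 44.21% in pup 2. Neither pair of intervals overlapped, and the transcripts moved in opposite directions while the gene level stayed at 8.47 and 8.49 TPM. These were 2 of the 13 member transcripts with a mean count of at least 100, and 14.5% of all 22395 such transcripts had intervals apart, so the share was close to that of the whole tissue. The microRNA gene Mir511, which lies in an intron of Mrc1, was listed at 0 counts in both pups in these libraries of RNA above 200 nucleotides.

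**Figure D3:**
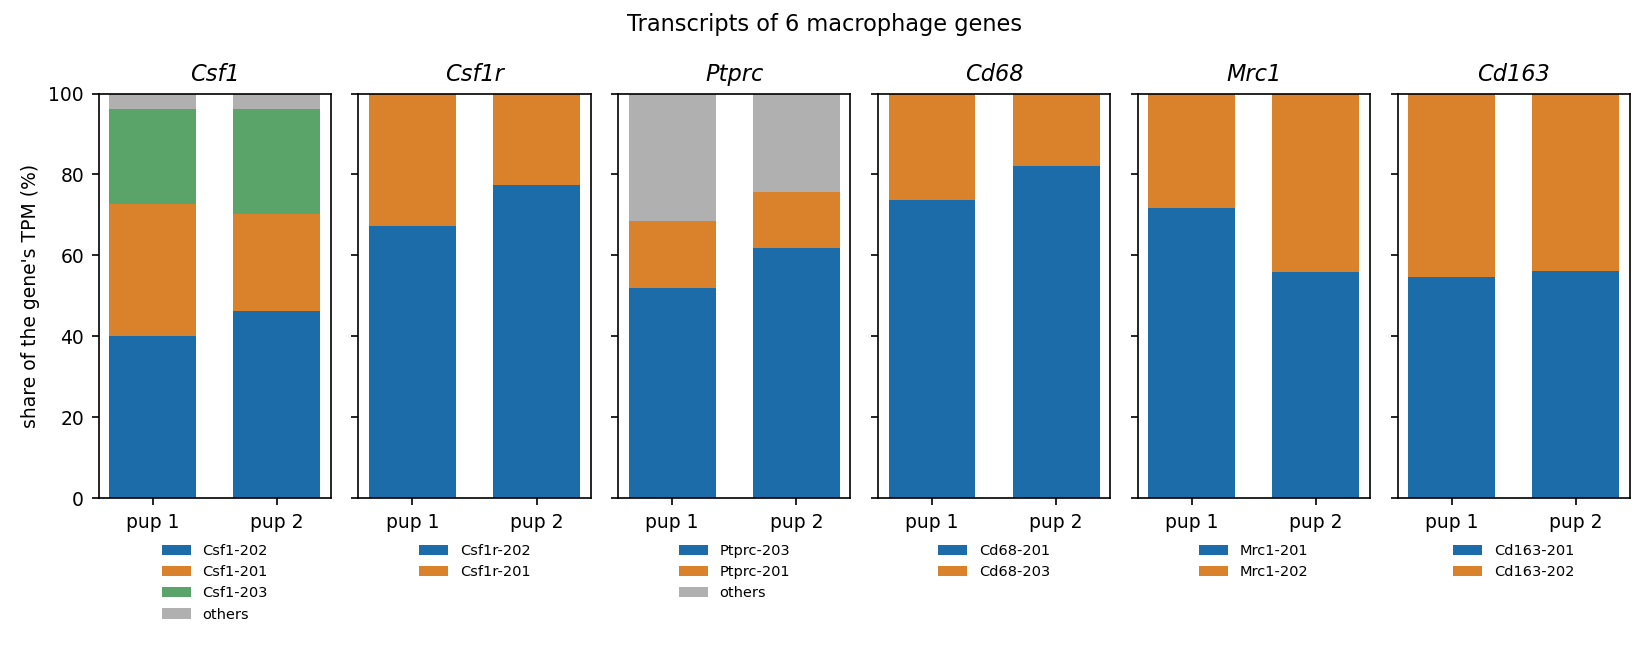
Share of each gene's TPM (percent) in its transcripts in pup 1 and pup 2 for 6 macrophage genes, with transcripts of at least 10% in both pups in colour and the rest in grey. Mrc1-202, which keeps an intron, takes 28.18% in pup 1 and 44.21% in pup 2, and Ptprc-203, the CD45RO form, leads Ptprc in both.

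The windows around the start sites of the members, from 250 bases before the start to 50 bases past it, were searched for a motif of the factor PU.1, a master regulator of myeloid cells encoded by Spi1. The core letters GGAAGT of the ETS family were read on either strand. They occurred in a 300-base window of 5 of the 7 members with a RefSeq promoter entry (GRCm38.p6). Counted by window, 6 of the 8 member windows held them, against 23.8% of all 32851 windows. Ptprc has more than 1 window. The members with a match were C1qb, C1qc, Mrc1, Cd68 and Ptprc, and Csf1 and Cd163 had none. In Cd68 the match lies just past the start and not before it. The longer GAGGAAGT, which holds the core, occurred in 1 of the 7, C1qc. By window it occurred in 1 of the 8 member windows and in 3.20% of all windows. A match is a description and not a binding site. The 250 bases upstream of the start are shown for C1qb, the highest member, and for Mrc1, the highest receptor with an entry, with the core in capitals.
C1qb, chr4:136886201-136886450, minus strand: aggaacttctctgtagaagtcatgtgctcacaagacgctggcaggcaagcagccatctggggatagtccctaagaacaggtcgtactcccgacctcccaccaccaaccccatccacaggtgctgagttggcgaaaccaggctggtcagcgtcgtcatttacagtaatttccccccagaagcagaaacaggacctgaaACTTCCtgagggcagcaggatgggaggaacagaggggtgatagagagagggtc
Mrc1, chr2:14229164-14229413, plus strand: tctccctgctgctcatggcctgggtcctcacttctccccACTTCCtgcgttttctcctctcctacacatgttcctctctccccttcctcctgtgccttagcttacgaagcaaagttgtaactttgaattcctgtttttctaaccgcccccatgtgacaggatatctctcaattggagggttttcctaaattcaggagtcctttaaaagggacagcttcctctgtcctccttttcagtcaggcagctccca
In C1qb the match begins 53 bases before the start, and in Mrc1 211 bases before it.

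Lists of genes with roles in macrophages were also measured in this whole tissue, where the cells that express them cannot be told apart. Of 13 myeloid transcription factors 11 were detected, with Id3 at 183 ± 14.4 TPM, Cebpb at 49.5 ± 3.13 and Irf8 at 15.3 ± 1.53, and Spi1 itself had 6.01 and 5.50 TPM in pups 1 and 2. Id3 and Cebpb are also expressed by many other cells. Of 17 myeloid receptors and adaptors 13 were detected, led by the signalling adaptors Tyrobp (58.7 ± 2.55) and Fcer1g (47.5 ± 4.94) and the lysosomal Laptm5 (27.1 ± 2.14). Of 8 colony-stimulating factors and their receptors 4 were detected, Csf1, Csf1r, Il34 and Csf2ra (5.08 ± 0.346). The genes of the other ligands, Csf2 with 1 and 0 counts and Csf3 with 5 and 4 counts in pups 1 and 2, were near 0.

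Of 14 genes listed for resident macrophages, most of them for surface proteins, 6 were detected. Gas6, a bridging ligand for dying cells that stromal cells also make, led at 174 ± 9.26 TPM. Next came the scavenger receptor gene Stab1 at 20.8 ± 0.148 and Lyve1 at 9.28 ± 1.82. Lyve1 is also among the markers of lymphatic endothelium. Timd4, a receptor of long-lived gut macrophages, had only 12 and 22 counts in pups 1 and 2. The Stab1 level in TPM was 19.7 times that of Cd163 in pup 1 and 22.7 times in pup 2. The gap in reads was smaller, with 1102.78 and 1100.86 expected counts for Stab1 against 191 and 158 for Cd163. The TPM ratio thus also depends on the transcript lengths assigned to each gene, and the transcripts of Stab1 were not examined.

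Other genes of complement were measured too. Of 11 such genes 10 were detected, with C1s1, a protease of the C1 complex, at 14.95 ± 0.679 TPM. Serping1, the gene of the inhibitor of these proteases, stood at 87.7 ± 1.32 TPM, and Cfb of the alternative pathway at 19.5 ± 1.87. The gene that missed the limit was C4b, a component that the C1 complex cleaves, with 1.08 TPM in pup 1 and 0.62 TPM in pup 2.

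Of 15 lysosome and phagosome genes 14 were detected, led by Cd63 (785 ± 10.8 TPM), the protease Ctsd (709.97 ± 27.2) and Lamp1 (228 ± 10.7), which most cells express. All 8 genes of haem and iron handling were detected, led by the ferritin genes Ftl1 (3190 ± 70.8) and Fth1 (2730 ± 12.2) and by Blvrb (82.9 ± 3.65). The 4 splicing regulators of the CD45 exons were detected, led by Hnrnpl (132 ± 1.90), Ptbp1 (87.2 ± 2.24) and Sfpq (36.5 ± 0.799). Of 5 MHC class II genes 4 were detected, led by H2-Ab1 (16.6 ± 0.552), Cd74 (15.4 ± 2.05) and H2-Aa (6.41 ± 0.863).

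Products of activated macrophages were low with 1 exception. Of 11 such genes 2 were detected, Arg1, which encodes arginase and is expressed outside macrophages as well, at 98.9 ± 27.3 TPM, and Tgfb1 at 1.24 ± 0.0707, ahead of Cxcl10 at 0.63 in both pups. Arg1 had 79.65 TPM in pup 1 and 118.24 TPM in pup 2. The inflammatory genes Tnf, with 17 and 21 counts, and Il1b, with 10 and 25 counts, stayed under a TPM of 1.

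Markers of other cells that share genes with macrophages were counted in the same libraries. Most lymphocyte markers were low. Of 14 genes 2 were detected, and the list summed to 9.85 TPM in pup 1 and 11.89 TPM in pup 2. The B-cell receptor gene Cd79b stood at 1.66 ± 0.00707 TPM and Nkg7 of cytotoxic cells at 0.505 ± 0.106. Cd3e, of the T-cell receptor complex, had 1 and 7 counts. Dendritic cell markers had 1 of 7 detected, Zbtb46 at 2.05 ± 0.0424, ahead of Siglech (0.685 ± 0.0212) and Flt3 (0.11 ± 0.0283), with sums of 2.99 and 3.17 TPM. Eosinophil markers had 0 of 4 detected and sums of 0.27 and 0.21 TPM, with Epx at 0.09 ± 0.0141, Prg2 at 0.065 ± 0.0919 and Siglecf at 0.06 ± 0.0424.

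Markers of macrophages of the liver, an organ that touches the stomach, were near 0. None of the 5 was detected, and the highest were Timd4 (0.205 ± 0.0919 TPM), Cd5l (0.155 ± 0.0778) and Marco (0.12 ± 0.0707). The list held 30 counts in pup 1 and 64 counts in pup 2, and all 5 genes were lower in pup 1. Of these, 4 (Timd4, Cd5l, Marco and Vsig4) are also among the 14 genes listed for resident macrophages. Clec4f, a marker of the Kupffer cells of the liver, had 5 and 12 counts.

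Of 5 monocyte markers 1 was detected, Plac8 at 334 ± 11.3 TPM, which epithelia also express, ahead of Ly6c2 (1.14 ± 0.375) and Ccr2 (0.84 ± 0.283), and the list summed to 343.8 and 328.14 TPM in pups 1 and 2. Ccr2, the chemokine receptor of incoming monocytes, had 138.31 and 85.67 counts. Neutrophil markers had 5 of 9 detected and sums of 131.8 and 140.32 TPM. They were led by Ltf (59.05 ± 14.1), which glands also secrete, S100a9 (52.4 ± 5.35) and S100a8 (18.4 ± 2.998), while Ly6g had 0 and 1 counts. Mast cell markers had 4 of 6 detected, led by Tpsb2 (15.7 ± 0.297), Cma1 (14.1 ± 1.28) and Cpa3 (9.29 ± 0.0141), and sums of 43.79 and 42.49 TPM.

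Platelet markers had 4 of 5 detected and sums of 185.31 and 151.58 TPM. Pf4, which some tissue macrophages also express, led at 148 ± 32.2, followed by Ppbp (9.18 ± 7.58) and Gp1bb (5.64 ± 0.148). Ppbp, with 3.82 TPM in pup 1 and 14.54 TPM in pup 2, was the only gene of the 20 lists called different between pups. All 6 blood endothelium markers were detected, led by Plvap (49.6 ± 2.77), Egfl7 (44.95 ± 2.81) and Pecam1 (17.5 ± 0.141), and summed to 135.04 and 142.67 TPM. Lymphatic markers had 5 of 6 detected, led by Pdpn (27.3 ± 5.16), Ccl21a (26.9 ± 0.269) and Lyve1, and summed to 71.37 and 61.47 TPM. The part of these cells in the levels of Mrc1 and of Ptprc was not tested.

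**Figure D4:**
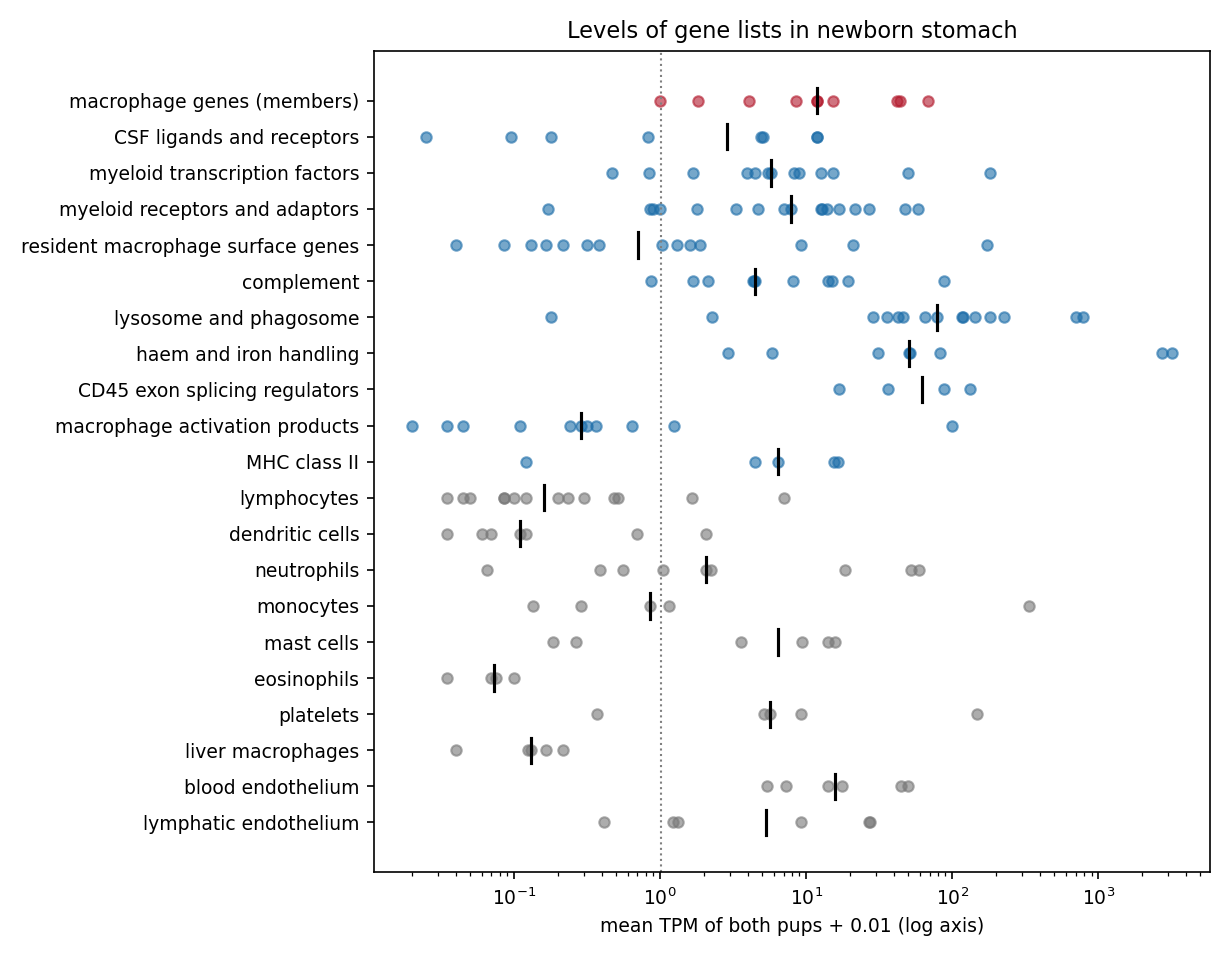
Mean TPM of both pups plus 0.01 (log axis) for the macrophage genes and the genes of 20 lists, 1 point per gene, a bar at each list's median and a dotted line near a TPM of 1. The macrophage genes lie between 0.985 and 68.8, while most lymphocyte, dendritic cell, eosinophil and liver macrophage markers lie left of the line.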

How the data were processed

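Total RNA of the stomach was sequenced from 2 pups, 1 library each. The tables are on mm10 with GENCODE M4, per the submitters' text. The aligner and the quantification program are likewise not given in the sources that were used. Strandedness is not given either, so overlapping genes cannot be told apart by strand.

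Expected counts in the deposited tables are estimates of reads, not scaled for depth, with shared reads divided among features. The deposited TPM values are scaled to the same total per library. FPKM in the deposited tables is scaled by length and by the library's total. The isoform share is, in the deposited transcript tables, the percent of a gene's TPM. Posterior means and interval bounds of TPM, deposited by the authors, were treated as signal values and not summed.

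Symbols, positions and transcript types came from GENCODE M21, matched on IDs without version for 42462 of 43346 genes. All 166 genes of the 20 lists were matched. From each list the 3 genes with the highest mean TPM were named, plus any called different, and any further gene was picked with its values in view. Some lymphocyte markers counted in their list are not reported here by name. The members were set by symbol with no threshold on their values, but the members and lists were chosen with earlier results of these data known. Ratios of count shares used exact binomial (Clopper-Pearson) intervals at 95% with scipy 1.17.1. They were checked only on simulated independent counts, which hold no PCR copies, divided reads or variation between pups. A count of 0 allows up to 3 counts, or 0.0582 CPM in pup 1 and 0.0600 CPM in pup 2. TMM factors came from edgeR 4.0.16 on counts rounded to whole numbers. No group comparison exists, so no test was run. Since both pups are of 1 litter, the SD measures the spread within it.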

Additional observations from a re-analysis of the deposited data

How the results depend on the processing

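The number of members detected was 9, and was 10 at a TPM of at least 0.1, 7 at a TPM of at least 5 and 9 with posterior means. With 1 pup left out it ranged from 9 to 10. The number called different between pups was 0 under each of 6 other rules (a 1.5-fold limit with and without intervals, intervals alone, a mean count of at least 10, binomial intervals with the 2-fold limit, and the median ratio set to 0). It was 3 with binomial intervals alone, a setting chosen after seeing the data, which asks for no fold difference. Neighbours that did not overlap numbered 8 by ranges over both pups, and 8 with posterior means or with TPM over nuclear protein-coding genes. By the deposited intervals they numbered 6 with the pups pooled and 7 within each pup alone. The same main transcript was found in 8 of 8 members under both alternatives. Scaling to nuclear protein-coding genes or using FPKM moved 9 of 10 mean levels by more than 1 SD, by construction. TMM-scaled CPM moved 1 log2 ratio of 10 by more than its counting error, that of Mrc1. No paired analysis was possible because there is 1 group. Depth limits Cd163 and the minor transcripts of Ptprc, the first of which rests on 191 and 158 counts.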
